A study of Homo sapiens with 36 samples.

Results

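The genes described here encode the nuclear pore complex, the receptors that carry cargo through it, and the lamina and inner membrane proteins that line the nucleus. They were taken by symbol: the numbered nucleoporins with POM121, NDC1 and TPR, the importins, exportins, transportins and Ran-binding proteins, and LMNA, LMNB1, LMNB2, EMD, LBR, SUN1 and SUN2. The symbols matched 58 of the 36601 genes in the count table, and 57 of them passed the filter on low counts, which left 14892 genes. KPNA7, an importin alpha of eggs and early embryos, was the exception, with 1 read in each of 2 clone 5 libraries and 0 in the other libraries.

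The cells were HEK293, an established human line of embryonic kidney origin. Per the labels, they had received a guide RNA library and a donor that fuses HaloTag, a ligand-binding protein tag, to endogenous proteins. Bulk RNA came from a pair of clones numbered 4 and 5, each treated with the DMSO vehicle or with the hydrophobic HaloTag ligand HyT36 at 25 µM, with 3 libraries in each of 4 groups. Each clone is a single clone, no bulk library of untagged cells was analysed here, and the protocols name exposures of 2 and 12 h without saying which applied to the bulk cultures. A guide named for HDAC2 was counted 2318 to 3504 times per library of clone 4 and 2 to 18 times in clone 5. One named for IGF1R was counted 2623 to 3806 times per library of clone 5 and 5 to 13 times in clone 4. Which protein carries the tag is not given in the labels. Guides named for 8 of the genes described here were among the guide features, with a maximum of 2 reads per library.

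The nuclear pore complex is a ring of repeated subcomplexes set into the nuclear envelope. A Y-shaped scaffold lies on both faces, an inner ring with membrane-anchored subunits holds the channel, and subunits with phenylalanine-glycine repeats fill it. Importins load cargo in the cytoplasm and release it when they meet Ran-GTP in the nucleus, whereas exportins bind cargo together with Ran-GTP. Under the envelope, A-type and B-type lamins form a meshwork that is tied to inner membrane proteins such as emerin (EMD) and the lamin B receptor (LBR).

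Gene reads per library ranged from 22853946 to 28635511, and the tested members had 275 to 34547 reads in a library. Levels are CPM, read counts brought to a common library size that was set by the trimmed mean of M-values (TMM), and the coefficient of variation of a member within a group had a median of 2.98% and a range of 0.339 to 12.4%. Differences are log2 fold changes ± SE from edgeR's quasi-likelihood test, and a gene was counted as changed when its Benjamini-Hochberg adjusted p over all genes tested was under 0.05. The sum of 12 epithelial transcripts divided the libraries in a way that the labels do not. It was 57.3 to 115 CPM in DMSO replicate 1 and HyT36 replicates 2 and 3 of clone 4 and in all DMSO libraries of clone 5, and 4.0 to 6.45 CPM in the others, which include all HyT36 libraries of clone 5. In clone 5 this division and the treatment cannot be told apart, and in clone 4 the called members are also given within each side of the division. VIM, which HEK293 cells express, was at 151 to 233 CPM in all libraries, and the leukocyte gene PTPRC at 0 to 0.118 CPM. In bulk RNA, a change in the share of cells of a type and a change in RNA per cell cannot be told apart.

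The first question was whether the ligand changed the messages of this machinery. In clone 4, 9 of the 57 tested genes changed with HyT36: 5 rose and 4 fell. Over all genes tested, 5.57% changed, with 2.21% higher and 3.36% lower. Among the 8439 genes at least as abundant as the least abundant tested member, 8.31% changed, 3.38% higher and 4.93% lower. Scaled by library totals alone, clone 4 gave 2 rises and 6 falls. In clone 5, 12 of 57 changed, with 9 rises and 3 falls (9 and 6 by library totals), against 8.19% of all genes tested (3.35% higher and 4.83% lower) and 12.3% at the members' abundance (5.25% higher and 7.09% lower). The libraries with and without ligand did not overlap for 22 members in clone 4 and 19 in clone 5, against 23.5% and 25.1% of all genes tested. The larger number of rises in clone 5 was not kept in every fit that left out 1 library. Without DMSO replicate 1 there were 3 rises and 4 falls, and without HyT36 replicate 2 there were 4 rises and 5 falls. In these fits 4.96% and 5.62% of all genes changed. Without any other single library of clone 5 there were 9 or 10 rises and 3 falls. The changes were small. They spanned -0.27 to 0.14 on the log2 scale in clone 4 and -0.33 to 0.26 in clone 5, and the median over the members was 0.02 in clone 4 and 0.03 in clone 5 beside 0.00 over all genes in both.

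The same 6 genes passed the threshold in both clones, in the same direction. They were 66.7% of those that changed in clone 4 and 50% of those in clone 5. Over all genes tested, 417 changed in both clones, which was 50.2% of the clone 4 calls and 34.2% of the clone 5 calls. Of these, 413 went in the same direction. KPNA4 and TNPO2 fell, and IPO5, IPO7, NUP160 and NUP205 rose. In clone 4 the calls of NUP160 and NUP205 were lost with the replicate number as a block (adjusted p = 0.0833 and 0.0581) and with library totals (adjusted p = 0.101 and 0.0621). Over 21 alternative settings, NUP160 lost its clone 4 call in 13, NUP205 in 9, IPO7 in 4 and IPO5 in 3. These settings leave out the test against a fold of at least 1.2, in which no member passed in either clone. The clone 4 and clone 5 responses rest on different libraries. Across the 57 genes, 49 had the same sign in both clones, beside 63.7% of all genes tested. Pearson's r between the 2 responses was 0.86 and Spearman's rho 0.82 across these genes, with -0.06 and 0.25 across all genes tested. These are descriptions across genes, which are not independent replicates. All genes tested include genes less abundant than any tested member, and these values were not computed for genes at the members' abundance.

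**Figure D1:**
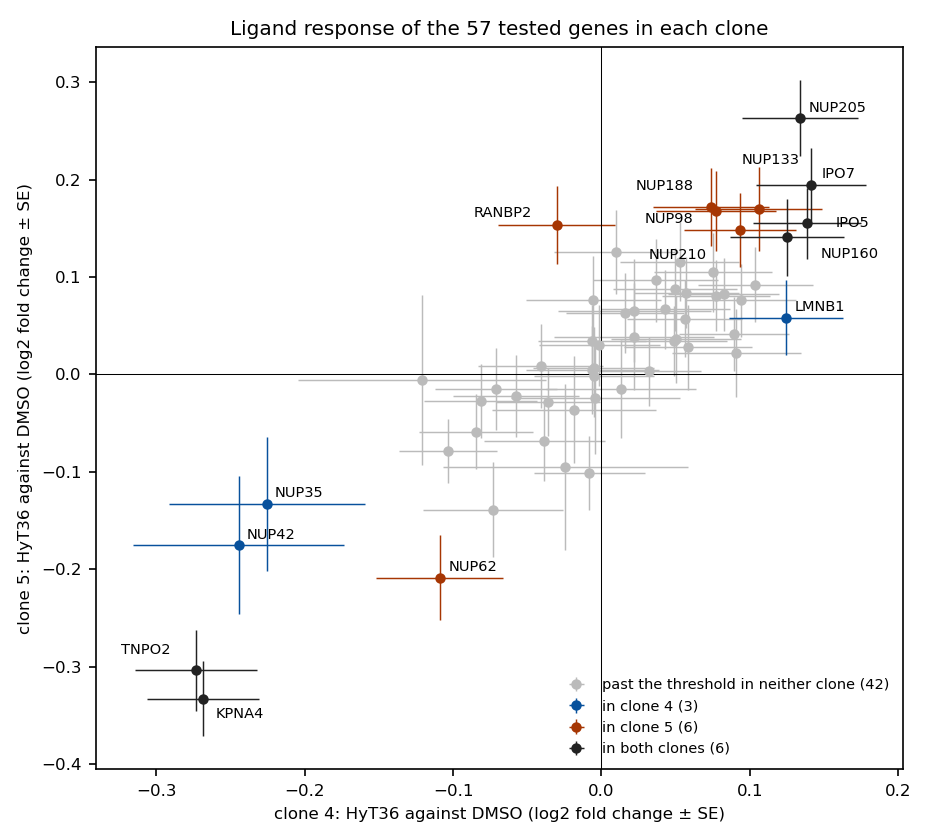
Log2 fold change ± SE of HyT36 against DMSO in clone 4 (horizontal axis) and clone 5 (vertical axis) for the 57 tested genes, coloured by the clone in which a gene passed the threshold. KPNA4 and TNPO2 lie at the lower left, NUP205, IPO7, IPO5 and NUP160 at the upper right, and 15 genes passed in at least 1 clone.

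The falls in both clones were an import adaptor and an import receptor. KPNA4 encodes an importin alpha, an adaptor that binds classical nuclear localization signals. Its levels in clone 4 were 164, 167 and 164 CPM with DMSO and 136, 137 and 138 CPM with HyT36. In clone 5 they were 152, 154 and 163 CPM with DMSO and 125, 124 and 123 CPM with HyT36. All HyT36 libraries lay below all DMSO libraries of the same clone, with a log2 change of -0.27 ± 0.04 in clone 4 (adjusted p = 3.61e-06) and -0.33 ± 0.04 in clone 5 (adjusted p = 9.45e-08).

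TNPO2, transportin 2, is an import receptor of the importin beta family that carries RNA-binding proteins. Its levels were 128, 126 and 128 CPM with DMSO and 105, 106 and 104 CPM with HyT36 in clone 4. In clone 5 they were 108, 118 and 108 CPM with DMSO and 88.2, 88.6 and 93.4 CPM with HyT36. Again the groups did not overlap, and the log2 change was -0.27 ± 0.04 in clone 4 (adjusted p = 1.16e-05) and -0.30 ± 0.04 in clone 5 (adjusted p = 2.67e-06). KPNA4 and TNPO2 fell in clone 4 on both sides of the epithelial division. On each side a treatment has a single library, so a gene that does not pass there is not shown to be unchanged. KPNA4 gave -0.28 in the libraries with few epithelial transcripts (DMSO replicates 2 and 3 against HyT36 replicate 1) and -0.25 in those with many. TNPO2 gave -0.27 and -0.28.

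The 2 receptors of the same family that rose in both clones were IPO5 and IPO7, known importers of ribosomal proteins and histones. IPO5 had 1077, 1100 and 1122 CPM with DMSO and 1246, 1181 and 1204 CPM with HyT36 in clone 4, a log2 change of 0.14 ± 0.04 (adjusted p = 0.0152). In clone 5 it had 940.5, 937 and 997 CPM with DMSO and 1078, 1106 and 1016 CPM with HyT36, a change of 0.16 ± 0.04 (adjusted p = 0.00421). The groups did not overlap in either clone. IPO7 had 685, 651 and 677 CPM with DMSO and 759, 735 and 726 CPM with HyT36 in clone 4 (0.14 ± 0.04, adjusted p = 0.0146). In clone 5 it had 518, 516 and 548 CPM with DMSO and 600, 633 and 579 CPM with HyT36 (0.19 ± 0.04, adjusted p = 0.000422). All HyT36 libraries were above all DMSO libraries here too. In clone 4, within the libraries with few epithelial transcripts, IPO5 was at 0.16 (adjusted p = 0.149) and IPO7 at 0.19 (adjusted p = 0.0667). Within those with many, IPO5 was at 0.15 (adjusted p = 0.0252) and IPO7 at 0.10 (adjusted p = 0.214).

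NUP205 is a large inner ring scaffold subunit. It had 307, 323 and 320 CPM with DMSO and 349, 347 and 347 CPM with HyT36 in clone 4, a change of 0.13 ± 0.04 (adjusted p = 0.0326). In clone 5 it had 278, 288 and 297 CPM with DMSO and 358, 357 and 321 CPM with HyT36, a change of 0.26 ± 0.04 (adjusted p = 1.03e-05), and HyT36 replicate 3 was the lowest of its group yet above every DMSO library. NUP160, a Y complex subunit, had 255, 255 and 256 CPM with DMSO and 291, 272 and 273 CPM with HyT36 in clone 4 (0.13 ± 0.04, adjusted p = 0.046). In clone 5 it had 208, 217 and 228 CPM with DMSO and 240, 249 and 231 CPM with HyT36 (0.14 ± 0.04, adjusted p = 0.0165). Its groups did not overlap in either clone. In clone 4, NUP205 was at 0.12 within the libraries with few epithelial transcripts (adjusted p = 0.478) and at 0.18 within those with many (adjusted p = 0.0109), and NUP160 was at 0.19 (adjusted p = 0.119) and 0.10 (adjusted p = 0.267).

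**Figure D2:**
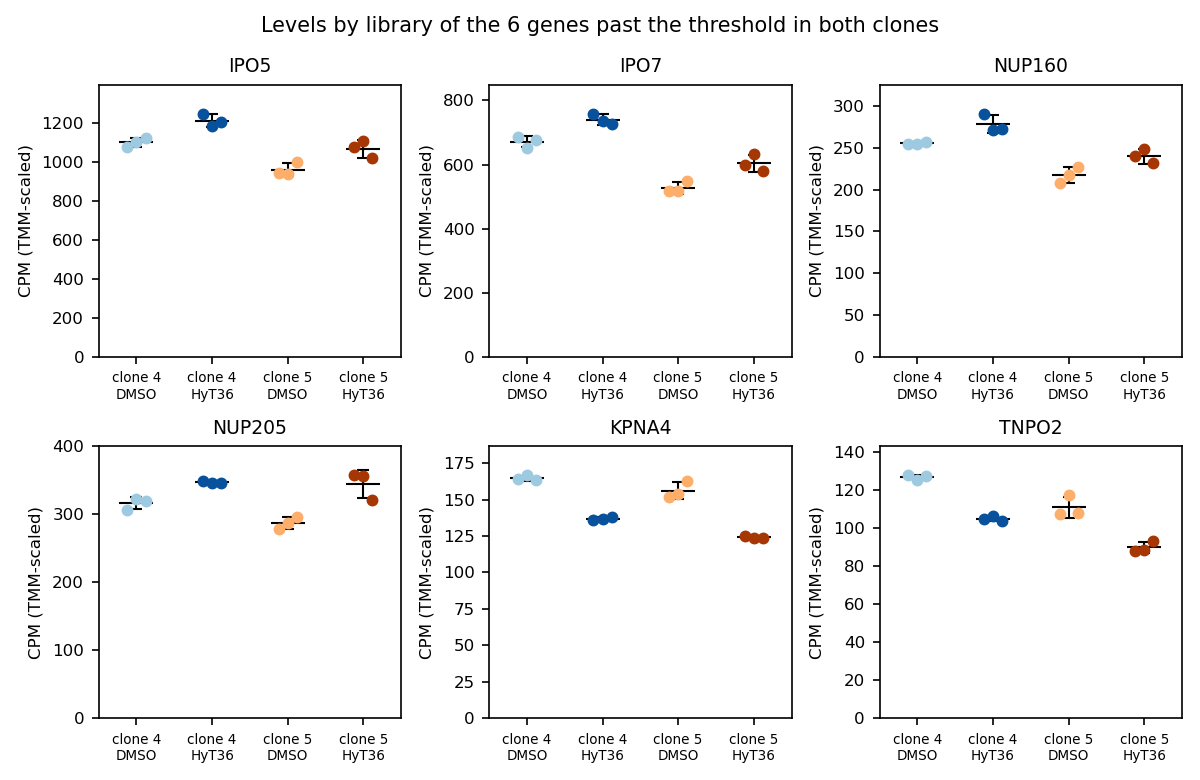
TMM-scaled CPM by library (points) with the mean ± SD of 3 libraries (bars) in each of the 4 groups, for the 6 genes that passed the threshold in both clones. With HyT36 the points of KPNA4 and TNPO2 sit below, and those of the other 4 genes above, the DMSO points of the same clone.

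The 250 bases before the RefSeq start sites were read for known promoter motifs. Shown are 4 of the 6 genes that passed in both clones, and EMD, the member with the largest difference between the clones. The promoter table has no entry for KPNA4, and NUP160, whose window held matches to the ETS-type motif and the GC box, is not shown. The sequences are from RefSeq on GRCh38.p14, written 5′ to 3′ on the gene's strand, and capitals mark every match to the motifs listed below on either strand. IPO5 lies at chr13:97953425-97953674 on the plus strand, IPO7 at chr11:9384402-9384651 on the plus strand, NUP205 at chr7:135557667-135557916 on the plus strand, TNPO2 at chr19:12723933-12724182 on the minus strand and EMD at chrX:154379045-154379294 on the plus strand. TNPO2 has 2 start sites in the table and the first is shown.
IPO5: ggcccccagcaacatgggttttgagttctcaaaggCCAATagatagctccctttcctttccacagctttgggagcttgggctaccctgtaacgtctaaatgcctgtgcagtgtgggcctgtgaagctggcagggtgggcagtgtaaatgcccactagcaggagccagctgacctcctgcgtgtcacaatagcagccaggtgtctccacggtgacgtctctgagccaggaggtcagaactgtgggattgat
IPO7: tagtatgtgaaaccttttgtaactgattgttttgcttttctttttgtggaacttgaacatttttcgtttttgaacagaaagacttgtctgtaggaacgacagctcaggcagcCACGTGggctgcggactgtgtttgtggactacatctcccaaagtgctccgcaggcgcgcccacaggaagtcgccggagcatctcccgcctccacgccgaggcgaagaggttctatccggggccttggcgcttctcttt
NUP205: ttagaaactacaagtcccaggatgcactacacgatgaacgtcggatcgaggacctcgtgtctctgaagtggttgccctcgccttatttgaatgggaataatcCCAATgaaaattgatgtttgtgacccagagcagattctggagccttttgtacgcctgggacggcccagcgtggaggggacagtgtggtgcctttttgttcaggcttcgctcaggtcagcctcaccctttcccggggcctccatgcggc
TNPO2: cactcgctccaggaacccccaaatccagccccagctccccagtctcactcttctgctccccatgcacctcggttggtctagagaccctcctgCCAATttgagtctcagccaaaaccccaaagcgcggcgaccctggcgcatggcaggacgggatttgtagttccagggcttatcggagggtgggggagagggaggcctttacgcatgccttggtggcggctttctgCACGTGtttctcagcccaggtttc
EMD: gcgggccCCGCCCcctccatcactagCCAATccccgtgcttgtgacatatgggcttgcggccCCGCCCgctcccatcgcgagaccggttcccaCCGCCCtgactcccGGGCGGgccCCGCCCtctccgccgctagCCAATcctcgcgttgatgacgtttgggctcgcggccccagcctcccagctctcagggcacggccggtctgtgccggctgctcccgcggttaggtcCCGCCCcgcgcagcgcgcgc

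IPO5 and NUP205 each held 1 CCAAT box, IPO7 held 1 E-box (CACGTG), and TNPO2 held 1 of each. EMD held 2 CCAAT boxes and 6 GC boxes (GGGCGG). Of the members, 50 were in the promoter table. CCAAT was found in 44% of them and in 33.0% of all 27305 promoters by symbol, and GGGCGG in 54% and 42.3%. The ETS-type motif CCGGAAG was found in 28% of members and 8.82% of all promoters, and the NRF1 palindrome in 8% and 1.13%. CACGTG was in 12% of members and 6.49% of all promoters, and the full CRE TGACGTCA in 6% and 1.77%. For the stress elements, TGATGNAA, the core of the site bound by ATF4, was in 2% of members (NUP153) and 3.19% of all promoters, and the heat shock element in 0 of 50 members and 0.439% of all promoters. Both strands were searched and matches of different motifs may overlap. A GC-rich window holds GC-rich motifs more often, and the median GC content was 62.8% in the members' windows and 58% in all. These counts describe letters only.

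Some members passed in a single clone. In clone 4, NUP35, an inner ring subunit, had 44.6, 39.6 and 43.6 CPM with DMSO and 38.7, 34.1 and 36.5 CPM with HyT36 (-0.23 ± 0.07, adjusted p = 0.0342). NUP42, a small subunit of the cytoplasmic face with a role in mRNA export, had 24.9, 22.3 and 25.2 CPM and then 22.2, 19.99 and 18.9 CPM (-0.24 ± 0.07, adjusted p = 0.0317). The HyT36 libraries lay below the DMSO libraries for both genes. Within the libraries with few epithelial transcripts NUP35 was at -0.10 and NUP42 at -0.10, and neither passed (adjusted p = 0.757 and 0.823), while both passed within those with many (-0.34 and -0.35). LMNB1, lamin B1, was the lamina gene that rose in clone 4, with a mean of 453 ± 4.89 CPM with HyT36 against 415 ± 15.5 CPM with DMSO (SD, n = 3, log2 change 0.12 ± 0.04, edgeR adjusted p = 0.0463). It was at 0.08 within the libraries with few epithelial transcripts (adjusted p = 0.675) and at 0.19 within those with many (adjusted p = 0.0046). Over the same 21 alternative settings, LMNB1 lost its clone 4 call in 12, and NUP35 and NUP42 in 6 each. LMNB1 lost it in edgeR with library totals (adjusted p = 0.115) and with the replicate block (adjusted p = 0.0669). By DESeq2, NUP35 had an adjusted p of 0.0631 and NUP42 of 0.0558. Without HyT36 replicate 3 the count in clone 4 was 3 of the 9, and 2.70% of all genes changed, beside 5.57% with every library.

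Other pore subunits passed in clone 5. NUP188, the inner ring partner that resembles NUP205, had 204, 217 and 226 CPM with DMSO and 250, 250 and 230 CPM with HyT36 (0.17 ± 0.04, adjusted p = 0.0037). NUP98, a channel subunit with phenylalanine-glycine repeats, had 159, 169 and 174 CPM and then 192, 193 and 180 CPM (0.17 ± 0.04, adjusted p = 0.00592). NUP133 of the Y complex had 135, 138 and 147 CPM and then 164, 163 and 145 CPM (0.17 ± 0.04, adjusted p = 0.00822), and here HyT36 replicate 3 overlapped the DMSO libraries. NUP210, a membrane-spanning subunit, rose by 0.15 ± 0.04 (adjusted p = 0.00916), and RANBP2, the large SUMO ligase of the cytoplasmic filaments, by 0.15 ± 0.04 (adjusted p = 0.0109). RANBP2 has near-identical copies (the RGPD genes), so its counts are uncertain. NUP62, a central channel subunit, was the pore subunit that fell in clone 5, with 122, 125 and 125 CPM with DMSO and 108, 103 and 112 CPM with HyT36 (-0.21 ± 0.04, adjusted p = 0.00135). Its RefSeq span overlaps that of ATF5, which was at -0.13 ± 0.05 in clone 5 (adjusted p = 0.136), and reads from the shared part cannot be told apart. Without DMSO replicate 1, 7 members passed in clone 5, and NUP133, RANBP2, NUP210, NUP188, NUP98 and NUP160 were not among them. In that fit 4.96% of all genes changed, beside 8.19% with every library.

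By role, the pore subunits gave 4 changes of 25 in clone 4 (2 rose and 2 fell) and 8 of 25 in clone 5 (7 rose and 1 fell). The transport factors gave 4 of 25 in each clone, in each 2 rises and 2 falls, and these were the same 4 genes. The background was 5.57% of all genes tested in clone 4 and 8.19% in clone 5. At the members' abundance it was 8.31% and 12.3%. None of the 6 exportins passed in either clone. XPO7 had the smallest p among them in clone 5 (0.12 ± 0.04, adjusted p = 0.067), and XPO1, the exportin for leucine-rich export signals, was at -0.01 ± 0.04 in clone 4 and 0.03 ± 0.04 in clone 5. KPNB1, the importin beta that works with the alpha adaptors, was at -0.10 ± 0.03 in clone 4 (adjusted p = 0.054) and -0.08 ± 0.03 in clone 5 (adjusted p = 0.151). The other tested alpha adaptors, KPNA1, KPNA2, KPNA3, KPNA5 and KPNA6, did not pass in either clone. The nuclear basket (NUP50, NUP153 and TPR), the Ran-binding proteins RANBP1 and RANBP3 and the inner membrane proteins EMD, LBR, SUN1 and SUN2 gave no call in either clone. LMNA was at -0.00 ± 0.04 in both clones.

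Whether the clones responded differently was tested directly, as the clone 5 response minus the clone 4 response. By edgeR's quasi-likelihood test, 0 of 57 members passed the adjusted threshold (0.302% of all genes and 0.355% at the members' abundance did), 2 had an unadjusted p under 0.05, and DESeq2 and limma-voom also called 0. The largest difference was in RANBP2, at 0.18 ± 0.06 (adjusted p = 0.229). It had 311, 307 and 313 CPM with DMSO and 308, 298 and 305 CPM with HyT36 in clone 4. In clone 5 it had 226, 244 and 247 CPM with DMSO and 260, 284 and 253 CPM with HyT36. The next was NUP205 at 0.13 ± 0.06 (adjusted p = 0.535). The genes that passed in a single clone are thus not shown to differ between the clones.

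In the same libraries, all 10 genes of a stress list rose in clone 4 and 9 of 10 in clone 5, among them the chaperone HSPA5 and the transcription factor DDIT3. Of all genes tested, 2.21% rose in clone 4 and 3.35% in clone 5. The part of the stress genes in the members' changes was not tested. A list of 43 further genes of the pore, of transport and of the nuclear membrane had 39 tested members. None rose in either clone, 2 fell in clone 4 and 5 fell in clone 5, beside falls in 3.36% and 4.83% of all genes tested. PHAX, the export adaptor of small nuclear RNAs, fell in both, by 0.17 ± 0.04 in clone 4 (adjusted p = 0.0142) and by 0.17 ± 0.04 in clone 5 (adjusted p = 0.0082). RAE1, an mRNA export factor of the pore, fell by 0.16 ± 0.05 (adjusted p = 0.0294) and 0.21 ± 0.05 (adjusted p = 0.0016). NXT1, TOR1A and RANGAP1 fell in clone 5 by 0.31 ± 0.07, 0.20 ± 0.05 and 0.13 ± 0.04. RAN itself was at 0.02 ± 0.04 and -0.03 ± 0.04.

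The second question was whether the clones differed in this machinery. With DMSO, 39 of the 57 tested genes differed, 2 higher and 37 lower in clone 5. The background was wide: 55.5% of all genes tested differed, 27.3% higher and 28.2% lower. At the members' abundance 61.5% differed, 26.5% higher and 35.0% lower. With HyT36, 37 members differed, 2 higher and 35 lower, against 56.0% of all genes tested (27.0% higher and 28.9% lower) and 62.7% at the members' abundance (26.3% and 36.4%). The share of members that differed, 68.4% and 64.9%, was near that background. By direction, 64.9% of members were lower with DMSO and 61.4% with HyT36, and 3.51% were higher in each. The clones did not overlap for 41 members with DMSO and 39 with HyT36, against 59.8% and 62.1% of all genes tested. Scaled by library totals alone, 5 members were higher and 33 lower with DMSO, and 9 higher and 33 lower with HyT36. Clone 4 has 1 DMSO library with many epithelial transcripts and 1 HyT36 library with few, as all clone 5 libraries of those treatments have. Against that single library, which was assumed to vary like the others, 34 members passed with DMSO (2 higher and 32 lower) and 32 with HyT36 (1 higher and 31 lower). The calls lost were those of NUP133, LMNB1, SUN1, NUP205, IPO8 and NUP88 with DMSO, and of KPNA4, POM121, TNPO3, NUP107 and SUN2 with HyT36. The median member differed by -0.19 with DMSO and -0.18 with HyT36, beside 0.00 over all genes in each, and -0.04 in each at the members' abundance.

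The pair of clone comparisons shares no library. In both, 34 members passed, all in the same direction, which was 87.2% of the calls with DMSO and 91.9% of those with HyT36. Over all genes tested, 6893 passed in both, which was 83.5% of the calls with DMSO and 82.7% of those with HyT36. Of these, 6881 went in the same direction. Pearson's r across the 57 members was 0.96, beside 0.82 across all genes, which include less abundant ones. NUP133, SUN1, NUP205, IPO8 and NUP88 passed with DMSO only, and KPNA4, SUN2 and NUP50 with HyT36 only. For these genes, too, the difference between the responses did not pass. A sum of 12 G2/M genes was also lower in clone 5, at 2741 to 2816 CPM with DMSO against 2937 to 3060 CPM in clone 4, with 8 of 12 genes lower with DMSO, and 7 lower and 2 higher with HyT36. Of 9 S phase genes, 4 were lower in each. Of all genes tested, 28.2% were lower and 27.3% higher with DMSO, and 28.9% and 27.0% with HyT36. The part of cell cycle genes in the difference of the members was not tested.

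**Figure D3:**
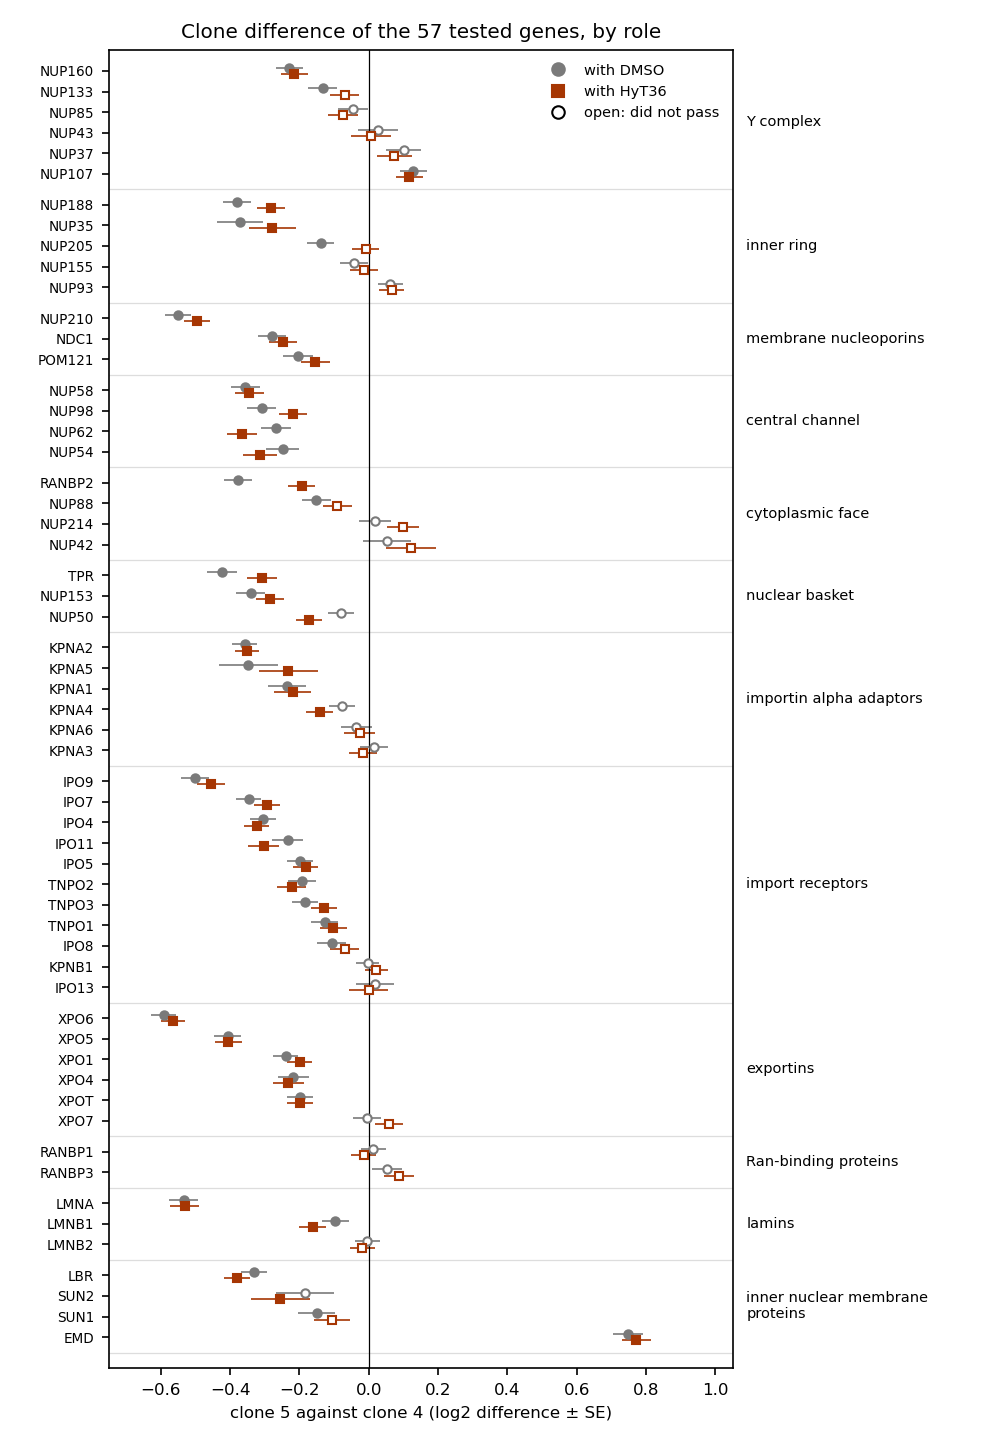
Log2 difference ± SE between clone 5 and clone 4 with DMSO (grey circles) and with HyT36 (brown squares) for the 57 tested genes, grouped by role. Open symbols did not pass the threshold. Most symbols lie left of 0, and EMD lies alone near 0.75 on the right.

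The largest decreases were in an exportin, a membrane nucleoporin, a lamin and an import receptor. XPO6, the exportin of profilin-bound actin, had 264, 270 and 264 CPM in clone 4 and 172, 177 and 180 CPM in clone 5 with DMSO (-0.59 ± 0.04, adjusted p = 1.03e-17). With HyT36 it had 271, 284 and 276 CPM in clone 4 and 188, 187 and 186 CPM in clone 5 (-0.57 ± 0.04, adjusted p = 4.16e-17). Levels in clone 5 were 33.7% and 32.4% lower, and no library of one clone overlapped the other. NUP210 had 378, 400.5 and 384 CPM against 253, 272 and 269 CPM with DMSO (-0.55 ± 0.04, adjusted p = 6.23e-16). With HyT36 it had 400.5, 423 and 415 CPM against 293, 302 and 284 CPM (-0.50 ± 0.04, adjusted p = 1.33e-14).

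LMNA, which encodes lamins A and C, had 298, 312 and 283 CPM in clone 4 and 199, 211 and 206 CPM in clone 5 with DMSO (-0.53 ± 0.04, adjusted p = 1.7e-14). With HyT36 it had 293, 293 and 303 CPM against 219, 196 and 200 CPM (-0.53 ± 0.04, adjusted p = 1.97e-14), and the difference between the clones' responses was 0.00 ± 0.06 (adjusted p = 0.996). The B-type lamins differed less. LMNB1 was at -0.10 ± 0.04 with DMSO (adjusted p = 0.0333, overlapping groups) and -0.16 ± 0.04 with HyT36 (adjusted p = 0.000442), and within the libraries with many epithelial transcripts its difference with DMSO was -0.03 (adjusted p = 0.591). LMNB2 was at -0.00 ± 0.04 and -0.02 ± 0.04. LBR, which binds B-type lamins and heterochromatin, had 296, 298 and 299 CPM against 241, 229 and 240 CPM with DMSO (-0.33 ± 0.04, adjusted p = 6.9e-10). With HyT36 it had 329, 308 and 314 CPM against 238, 254 and 238 CPM (-0.38 ± 0.04, adjusted p = 2.06e-11). SUN1 and SUN2 span the inner membrane and join the lamina to the cytoskeleton. SUN1 was lower with DMSO (-0.15 ± 0.05, adjusted p = 0.0139) and SUN2 with HyT36 (-0.26 ± 0.09, adjusted p = 0.00982). Neither passed within 1 side of the epithelial division: SUN1 was at -0.04 among the DMSO libraries with many of these transcripts (adjusted p = 0.646) and SUN2 at -0.14 among the HyT36 libraries with few (adjusted p = 0.35).

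IPO9, an import receptor for histones and actin, had 157, 159 and 165 CPM in clone 4 and 110, 113 and 117 CPM in clone 5 with DMSO (-0.50 ± 0.04, adjusted p = 6.15e-14). TPR, the filament protein of the nuclear basket, had 153, 155 and 147 CPM against 107, 121 and 112 CPM (-0.42 ± 0.04, adjusted p = 3.37e-11). XPO5, the exportin of precursor microRNAs, had 183, 192 and 186 CPM against 136, 145 and 143 CPM (-0.41 ± 0.04, adjusted p = 1.24e-11). NUP188 had 277, 288 and 278 CPM against 204, 217 and 226 CPM (-0.38 ± 0.04, adjusted p = 8.61e-11). In each of these genes every clone 5 library lay below every clone 4 library. With HyT36, IPO9 had 165, 160 and 161 CPM against 121, 121 and 113 CPM (-0.45 ± 0.04, adjusted p = 1.01e-12), and XPO5 had 197, 196 and 191 CPM against 148, 153 and 140 CPM (-0.41 ± 0.04, adjusted p = 1.24e-11). TPR was at -0.31 ± 0.04 and NUP188 at -0.28 ± 0.04. The RefSeq spans of TPR, XPO5 and NUP188 overlap those of PRG4, POLR1C and SH3GLB2.

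**Figure D4:**
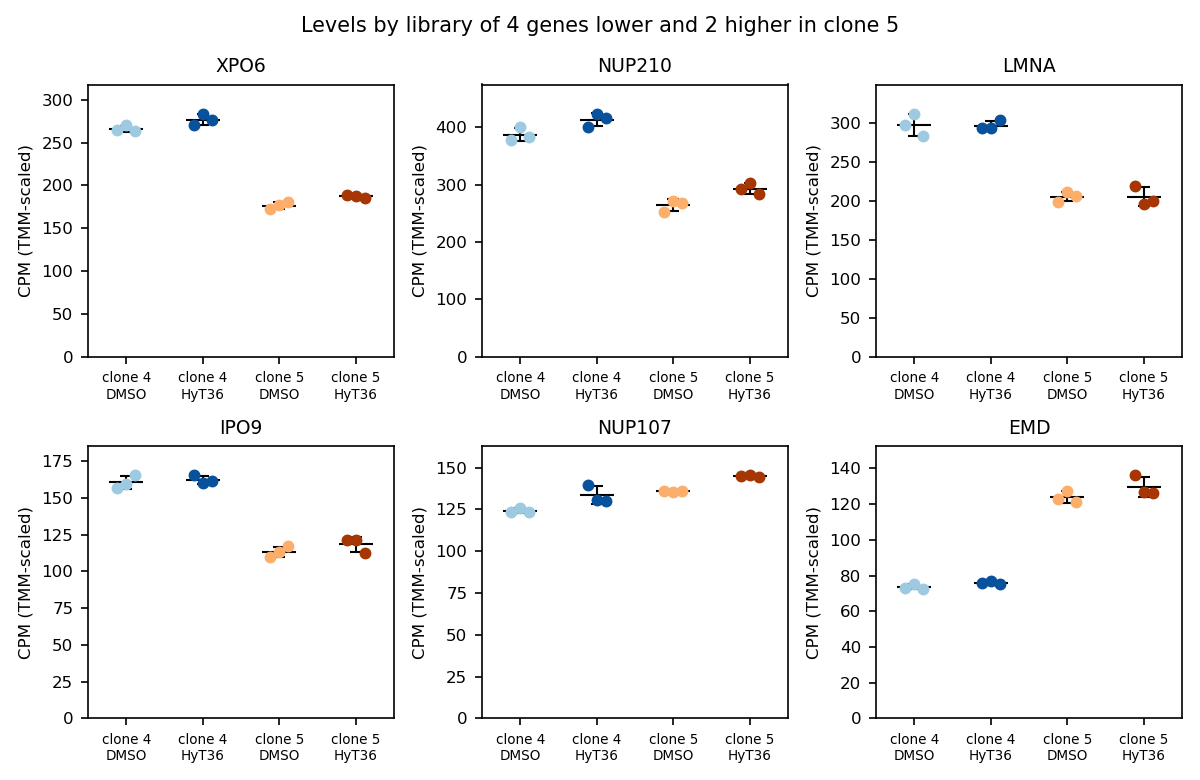
TMM-scaled CPM by library (points) with the mean ± SD of 3 libraries (bars) in each group, for XPO6, NUP210, LMNA and IPO9, which were lower in clone 5, and NUP107 and EMD, which were higher. The clone 5 points of XPO6 lie between 172 and 188 CPM and those of clone 4 between 264 and 284 CPM.

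Pore subunits are given by subcomplex, and the subcomplexes were not tested against each other. With DMSO, all 4 central channel subunits (NUP54, NUP58, NUP62 and NUP98) and all 3 membrane subunits (NDC1, NUP210 and POM121) were lower in clone 5, as they were with HyT36. Their differences with DMSO ranged from -0.36 to -0.25 in the channel and from -0.55 to -0.20 in the membrane subunits. The share of genes lower in clone 5 was 28.2% of all genes tested with DMSO and 28.9% with HyT36. At the members' abundance it was 35.0% and 36.4%. With HyT36, NUP62 had 132, 143 and 141 CPM in clone 4 and 108, 103 and 111 CPM in clone 5 (-0.37 ± 0.04, adjusted p = 2.21e-09). POM121 has a near-identical copy, POM121C, which was also lower (-0.25 ± 0.04), so reads may be split between them. With HyT36, POM121 was at -0.09 within the libraries with few epithelial transcripts (adjusted p = 0.282), where its call was lost. The inner ring had NUP35, NUP188 and NUP205 lower with DMSO, and NUP93 and NUP155 did not pass (0.06 ± 0.04 and -0.04 ± 0.04). Of the cytoplasmic face, RANBP2 (-0.38 ± 0.04) and NUP88 (-0.15 ± 0.04) were lower, while NUP42 and NUP214 did not pass. NUP88 was at -0.03 within the libraries with many epithelial transcripts (adjusted p = 0.662). The basket had TPR and NUP153 lower with DMSO and all 3 with HyT36.

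In the Y complex, NUP160 (-0.23 ± 0.04) and NUP133 (-0.13 ± 0.04) were lower with DMSO, NUP107 was higher, and NUP37, NUP43 and NUP85 did not pass. NUP133 was at -0.09 within the libraries with many epithelial transcripts (adjusted p = 0.15). NUP107 had 124, 126 and 124 CPM in clone 4 and 136, 135 and 136 CPM in clone 5 with DMSO (0.13 ± 0.04, adjusted p = 0.00473). With HyT36 it had 140, 131 and 130 CPM against 145, 146 and 144 CPM (0.12 ± 0.04, adjusted p = 0.00926). The groups did not overlap, though within the HyT36 libraries with few epithelial transcripts the difference was 0.06 (adjusted p = 0.5).

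Of the transport factors, 17 of 25 were lower in clone 5 with DMSO and none was higher with TMM scaling, and the same counts held with HyT36. Lower levels were called in 28.2% of all genes tested with DMSO and in 28.9% with HyT36. At the members' abundance the shares were 35.0% and 36.4%. Among the import receptors 9 of 11 were lower with DMSO (IPO4, IPO5, IPO7, IPO8, IPO9, IPO11, TNPO1, TNPO2 and TNPO3), from -0.50 in IPO9 to -0.11 in IPO8, and KPNB1 (-0.00 ± 0.03) and IPO13 (0.02 ± 0.06) did not pass. Among the exportins 5 of 6 were lower (XPO1, XPO4, XPO5, XPO6 and XPOT), and XPO7 was at -0.00 ± 0.04. KPNA2, the importin alpha that is abundant in dividing cells, had 789, 808 and 809 CPM in clone 4 and 620, 620 and 638 CPM in clone 5 with DMSO (-0.36 ± 0.04, adjusted p = 1.55e-11). KPNA1 (-0.24 ± 0.05) and KPNA5 (-0.35 ± 0.09) were also lower, while KPNA3 (0.01 ± 0.04) and KPNA6 (-0.04 ± 0.04) did not pass. The Ran-binding proteins RANBP1 (0.01 ± 0.04) and RANBP3 (0.05 ± 0.04) did not pass.

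EMD encodes emerin, an inner membrane protein that binds lamins, and had the largest difference of any member. Its levels were 73.1, 75.5 and 72.7 CPM in clone 4 and 123, 128 and 121 CPM in clone 5 with DMSO (0.75 ± 0.04, adjusted p = 9.92e-19). With HyT36 they were 75.8, 77.2 and 75.03 CPM against 136, 127 and 126 CPM (0.77 ± 0.04, adjusted p = 2.9e-19). Levels in clone 5 were 67.9% and 70.7% higher. EMD is the only member on the X chromosome (chrX:154379295-154381523 in GRCh38.p14). The 482 tested X-linked genes had a median difference of 0.90 with DMSO and 0.92 with HyT36, and 409 and 411 of them were higher in clone 5 and 30 and 27 lower. Medians of the 22 autosomes ranged from -0.07 to 0.04 with DMSO and from -0.08 to 0.02 with HyT36. Of the 60 tested genes within 5 Mb of EMD, 25% had a lower difference than EMD with DMSO, and their median was 0.92. The 2 X-linked genes of the related list were higher as well: NXT2 by 1.08 ± 0.07 and NUP62CL by 1.02 ± 0.14 with DMSO.

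The medians of the autosomal members' neighbours ranged from -0.19 to 0.13 with DMSO and from -0.24 to 0.16 with HyT36. With DMSO, 47 of 56 autosomal members lay below the median of the tested genes within 5 Mb of them, and 43 of 56 with HyT36. No such count was made for other genes of like abundance. Around XPO6 the 105 neighbours had a median of 0.01 with DMSO, and around LMNA the 134 had 0.00. The 64 around NUP210 and the 64 around IPO9 each had 0.03, and the 27 around TPR had -0.13. The same medians with HyT36 were -0.07 around XPO6, -0.08 around LMNA, -0.03 around NUP210, -0.03 around IPO9 and -0.04 around TPR. Some called members lay close to their neighbours. XPO4 was at -0.22 beside a median of -0.19 with DMSO, and KPNA5 at -0.23 beside -0.24 with HyT36. Across the 56 autosomal members, Pearson's r between a member's difference and its neighbours' median was 0.10 with DMSO, as a description. Positions were found for 13343 of the 14892 tested genes.

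**Figure D5:**
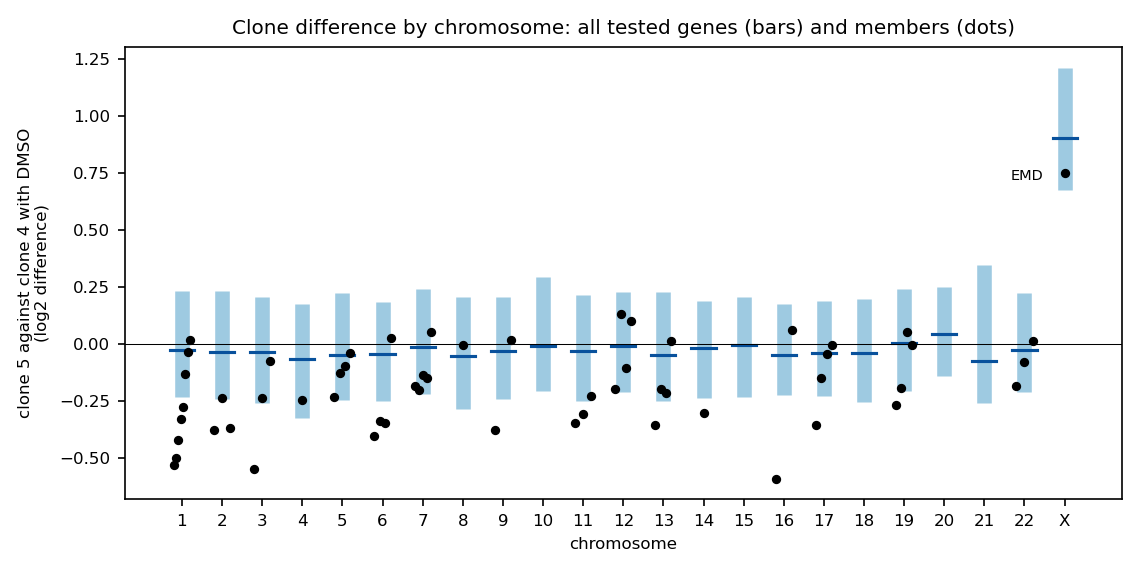
Log2 difference between clone 5 and clone 4 with DMSO by chromosome. Pale bars span the middle 50% of all tested genes, dark lines are their medians, and dots are the members, placed side by side without regard to position. The X chromosome is at a median of 0.90 with EMD inside its bar, and the autosomal medians lie between -0.07 and 0.04.

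Of the 39 tested related genes, 11 were higher and 13 lower in clone 5 with DMSO, and 11 and 15 with HyT36, with a median of 0.01 and -0.01. Of all genes tested, 27.3% were higher and 28.2% lower with DMSO, and 27.0% and 28.9% with HyT36. The lower ones included NXF1, the main mRNA exporter (-0.43 ± 0.05), AHCTF1, which seeds pore assembly on chromatin (-0.41 ± 0.04), RCC1, the Ran exchange factor (-0.36 ± 0.04), CSE1L, which returns importin alpha to the cytoplasm (-0.19 ± 0.04), and RAN (-0.14 ± 0.04). Among the higher ones were TMPO (0.18 ± 0.04), GLE1 (0.18 ± 0.05) and TOR1A (0.16 ± 0.05), all with DMSO. The related genes went in both directions, and whether they differ as a group from the members was not tested.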

How the data were processed

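The authors deposited 1 table of raw counts for 12 bulk libraries, per the file headers. The other 24 samples were not analysed here. Entries for 22344 guides and 4 read summaries were removed before scaling, and genes held 82.4 to 83.9% of each library (ambiguous reads 6.75 to 7.15%). The submitters' processing notes name GRCh38 and Cell Ranger 7. For the bulk counts, the sources used here give no aligner, annotation or strand setting.

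The 36601 genes were filtered by filterByExpr and tested with edgeR 4.0.16 in R 4.3.3 (TMM, robust two-sided quasi-likelihood F-test, 4 group means, no covariate), with Benjamini-Hochberg adjustment over the 14892 genes tested. The SE is the absolute log2 fold change over the root of F. DESeq2 1.42.0 and limma 3.58.1 were alternatives. On simulated data for the clone 4 response (14585 genes), 10% of 1.1-fold, 64% of 1.25-fold and 96% of 1.5-fold changes were recovered, with 11 of 146 calls false. No label calls the replicates separate cultures. The p-values therefore reflect only how these samples vary, which may be technical. Members and lists were chosen with earlier results of these data known. Every member past the threshold is named, with library values for up to 8 per comparison of the largest change. Library values of LBR, KPNA2, NUP107 and RANBP2 were added after their values were seen. Promoters and coordinates are RefSeq's on GRCh38.p14, matched by symbol.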

Additional observations from a re-analysis of the deposited data

How the results depend on the processing

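No called member changed sign under any alternative. The main limit is effect size: against a fold of at least 1.2 (edgeR's glmTreat), 0 members passed in either ligand response, where 9 and 12 had passed against 0. In the clone differences, 14 instead of 39 passed with DMSO and 10 instead of 37 with HyT36. Of all genes tested, 0.349% passed that fold in the clone 4 response and 0.248% in the clone 5 response. In the clone differences 26.8% of all genes passed it with DMSO and 27.8% with HyT36. Leaving out 1 library at a time gave 3 to 9 members in the clone 4 response, 7 to 15 in the clone 5 response, 0 to 0 in the difference of responses, 35 to 41 in the clone difference with DMSO and 35 to 38 with HyT36. The clone 4 count fell to 5 without DMSO replicate 1, 5 without DMSO replicate 3, 4 without HyT36 replicate 1, 4 without HyT36 replicate 2 and 3 without HyT36 replicate 3. In these fits, in the same order, 5.42, 3.995, 3.59, 3.51 and 2.70% of all genes changed, beside 5.57% with every library. The clone 5 count fell to 7 without DMSO replicate 1 (3 rises and 4 falls), and without HyT36 replicate 2 it was 9 (4 rises and 5 falls). There, 4.96% and 5.62% of all genes changed, beside 8.19% with every library. The cause was not tested. KPNA4 and TNPO2 in both clones, and NUP205, IPO7 and NUP62 in clone 5, passed under all settings other than the fold of 1.2. Clone 4 has 1 HyT36 library among those with few epithelial transcripts and 1 DMSO library among those with many. Such a single library is assumed to vary like the others. The 9 members called in clone 4 kept their sign on both sides. Scaling by library totals alone turned 5 rises and 4 falls in clone 4 into 2 and 6, 9 rises and 3 falls in clone 5 into 9 and 6, 2 higher and 37 lower in the clone difference with DMSO into 5 and 33, and 2 higher and 35 lower with HyT36 into 9 and 33. DESeq2, limma-voom, other size factors, no filter and fits on only the groups compared gave counts within 1.5 times of those reported.

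Replicate numbers did not pair the libraries: the deviations of same-numbered libraries correlated at -0.54 to 0.16, with 2 of 18 pairs over 0.1. Differently numbered libraries ranged from -0.31 to 0.42. In clone 4, the -0.54 was between DMSO replicate 1 and HyT36 replicate 1, on opposite sides of the epithelial division. The 0.42 was between DMSO replicate 3 and HyT36 replicate 1, on the same side. The part of the division in these values was not tested. With the replicate number as a block, 6 members passed in clone 4, 12 in clone 5, 0 in the difference of responses, 39 in the clone difference with DMSO and 37 with HyT36.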
